A study of Mus musculus with 8 samples.

Results

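The genes described here are the SR proteins, the hnRNPs and the Mbnl, Celf and Rbfox families, RNA-binding proteins that decide which exons of a pre-mRNA are joined. They were chosen by name from the probe annotation of the array: symbols of the Srsf series, symbols starting with Hnrnp, Mbnl1 to Mbnl3, Celf1 to Celf6 and Rbfox1 to Rbfox3. This gave 39 genes of 19938 with a probe set of a single symbol, namely 10 SR proteins, 17 hnRNPs, 3 Mbnl, 6 Celf and 3 Rbfox genes. Where a gene had several probe sets, the one with the highest mean over all arrays stood for it.

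SR proteins bind exonic enhancers through RNA recognition motifs and recruit the spliceosome through arginine- and serine-rich tails. The hnRNPs coat nascent transcripts and often oppose exon inclusion. Members of the Mbnl, Celf and Rbfox families are known for their part in muscle, heart and brain: in muscle, Mbnl and Celf proteins push many of the same exons in opposite directions as the tissue matures, and Rbfox proteins bind intronic GCAUG elements next to muscle exons.

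RNA came from primary myoblasts, which are dividing muscle precursors derived from satellite cells, and was hybridized to Affymetrix MoGene 1.0 ST arrays. Of 8 arrays, 4 were labelled WT and 4 Runx1f/f, each numbered 1 to 4 as biological replicates. All animals were of C57bl/6 background and aged 2 to 3 weeks, and satellite cells were taken from the gastrocnemius muscles and grown on Matrigel in a commercial proliferation medium. Runx1f/f denotes a floxed Runx1 allele, and the treatment label calls the comparison WT to KO; the sources used here do not give the Cre driver, the deleted exons or whether a replicate was an animal or a pool. Values are log2 intensities after RMA, 1 per probe set and array, and levels of different probe sets are not compared. Whole-transcript probe sets measure the amount of RNA of each regulator, not the splicing of its targets or the amount of protein.

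The labelled genotypes could not be compared. For each of the 35399 probe sets, averaging WT 1 to 4, averaging Runx1f/f 1 with 2, and averaging Runx1f/f 3 with 4 gave the same value to within 7.5e-05. For the 39 regulators the largest difference between labels was 5e-05, and 0 were called (limma, adjusted p under 0.05; 0 had an unadjusted p under 0.05 and the percentage called over all genes was 0%). As labelled, the columns therefore hold no measure of a difference between the genotypes. Runx1 itself, the targeted gene, read 9.15, 9.99, 10.27 and 9.25 in the WT arrays and 9.35, 9.98, 9.89 and 9.44 in the Runx1f/f arrays, with a mean of 9.67 under both labels. Its arrays separated by number instead, at 10.03 ± 0.16 (SD, n = 4) in numbers 2 and 3 and 9.30 ± 0.13 in numbers 1 and 4, without overlap (difference 0.74 ± 0.10 SE, 1.67-fold, limma, adjusted p = 0.00911).

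The arrays of all genes together also separated by replicate number. Numbers 2 and 3 of both labels lay on one side of the leading principal component, which held 65.5% of the variance, and numbers 1 and 4 on the other. The equal means put Runx1f/f 1 opposite 2, and 3 opposite 4, on any component. Their scores were -15.27 and 15.27, and 16.76 and -16.76. Among Runx1f/f arrays only the side that 2 shared with 3 was therefore free. In every gene, likewise, these pairs lie equally far above and below the gene mean. What numbers 2 and 3 share is not given in the labels.

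Which column holds which sample is in doubt, and this bears on every difference given here. The labels carry a source number for each sample, 139, 142, 160 and 189 for WT 1 to 4 and 140, 141, 161 and 181 for Runx1f/f 1 to 4. If the 8 columns stood in rising order of these numbers, the column sets of equal mean would hold 139 to 142, 160 with 161, and 181 with 189, each with as many WT as Runx1f/f samples. The columns titled numbers 2 and 3 of both labels would then be the 4 Runx1f/f samples and those titled 1 and 4 the 4 WT samples, so that the split would be the genotype comparison, with Runx1 intensity higher in Runx1f/f. The files used here do not settle the order. Columns are named as labelled throughout, and no difference is read as an effect of genotype.

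The split of numbers 2 and 3 against 1 and 4, with 4 arrays a side, was seen in the values of all genes, the regulators among them, before it was tested, so the p-values below describe how far each regulator followed the separation and are no independent evidence for it. Differences are given as numbers 2 and 3 minus numbers 1 and 4, with the 3 sets of columns of equal mean as a term of the fit.

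Of the 39 regulators, 3 were called: Celf2 and Rbfox2 were higher and Mbnl3 was lower in numbers 2 and 3 (limma, adjusted p under 0.05). That is 7.69% of the list, against 6.10% of all genes, so the share was near the background. By direction, 2 were higher (3.69% of all genes) and 1 was lower (2.41% of all genes). The median difference of the list was -0.011, against -0.0064 over all genes, and the median absolute difference was 0.051, against 0.065. By family, the calls were 3 of 12 Mbnl, Celf and Rbfox genes and 0 of 27 SR proteins and hnRNPs, a difference that was not tested.

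**Figure D1:**
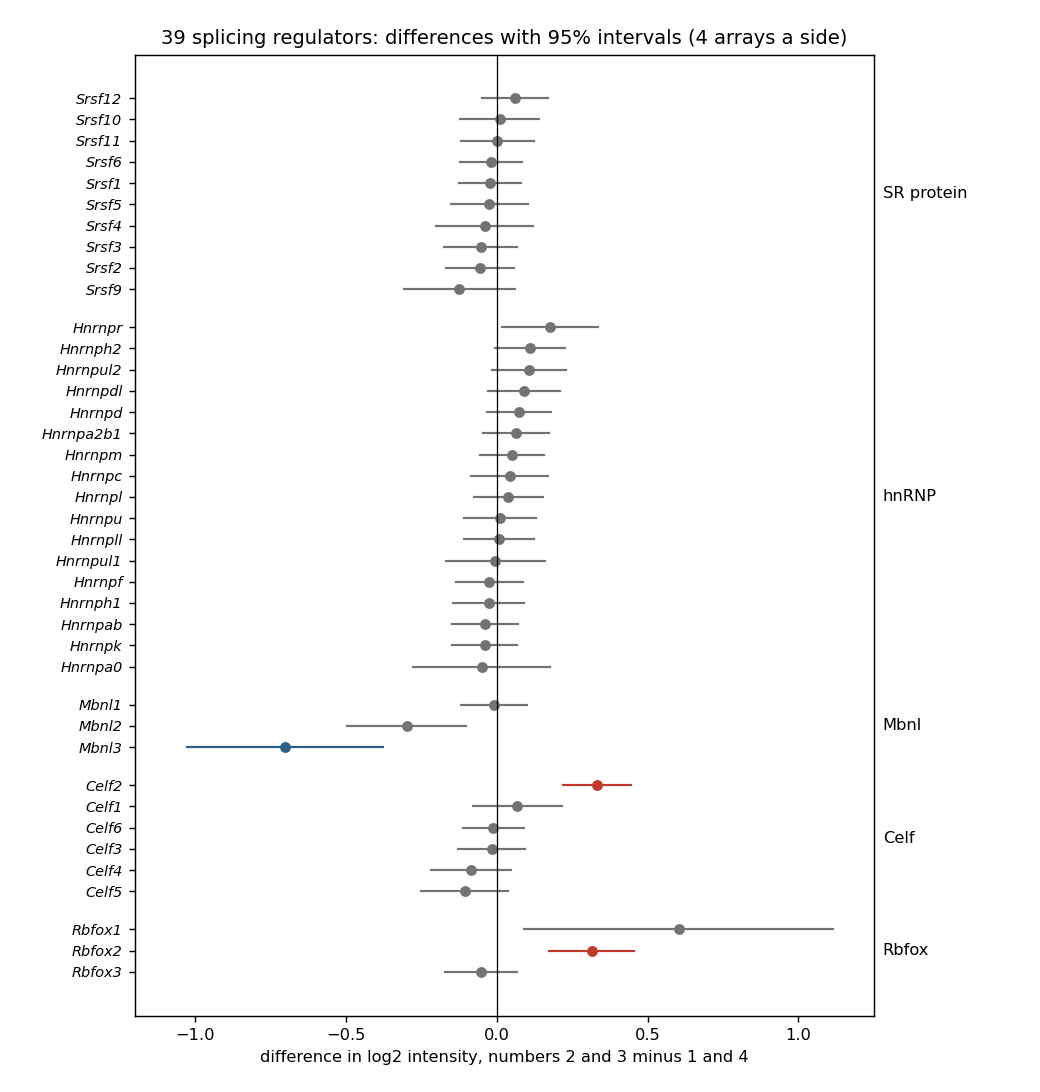
Difference in log2 intensity between replicate numbers 2 and 3 and numbers 1 and 4 for the 39 regulators, 4 arrays a side, with 95% intervals as bars (unadjusted for the number of genes). Red marks genes called higher and blue genes called lower; the intervals of all 27 SR proteins and hnRNPs lie between -0.31 and 0.34.

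Because MyoD and c-Jun stand beside Runx1 in the title of the series, promoters were searched for the E-box CANNTG bound by MyoD, for the RUNX motif TGNGGT and for the AP-1 motif TGANTCA bound by Jun and Fos proteins, each on both strands. Sequences are from RefSeq (GRCm38.p6), and 35 of the 39 regulators had at least 1 start site there, with 64 windows in all. In the 250 bases before each start, an E-box stood in 59.4% of these windows, against 66.2% of 32851 windows of all genes, a RUNX motif in 31.2% against 40.1%, and an AP-1 motif in 3.12% against 6.75%. The windows of 4 genes are shown because they are the called regulators with a RefSeq window, Celf2 and Mbnl3, and the called SR protein kinase Srpk3, beside Mbnl2, the Mbnl3 relative that missed the threshold. Each runs 5′ to 3′ on the gene's own strand and ends at the base before the start, with matches in capitals.
Mbnl3, chrX:51205991-51206240, minus strand: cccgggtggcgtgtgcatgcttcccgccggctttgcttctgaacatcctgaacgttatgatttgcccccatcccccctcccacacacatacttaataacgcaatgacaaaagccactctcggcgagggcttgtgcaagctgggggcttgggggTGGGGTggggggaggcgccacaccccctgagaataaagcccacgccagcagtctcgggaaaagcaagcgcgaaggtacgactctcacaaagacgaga
Mbnl2, chr14:120275419-120275668, plus strand: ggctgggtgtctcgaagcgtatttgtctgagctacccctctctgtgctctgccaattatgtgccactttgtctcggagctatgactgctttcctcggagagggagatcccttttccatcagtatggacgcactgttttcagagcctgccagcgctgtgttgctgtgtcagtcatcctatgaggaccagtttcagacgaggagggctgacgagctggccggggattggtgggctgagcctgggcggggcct
Celf2, chr2:7396199-7396448, minus strand: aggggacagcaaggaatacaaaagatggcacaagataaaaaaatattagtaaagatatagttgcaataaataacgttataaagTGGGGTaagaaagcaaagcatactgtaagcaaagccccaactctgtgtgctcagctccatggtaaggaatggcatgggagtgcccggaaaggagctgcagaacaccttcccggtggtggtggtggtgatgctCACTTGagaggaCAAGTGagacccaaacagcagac
Srpk3, chrX:73774155-73774404, plus strand: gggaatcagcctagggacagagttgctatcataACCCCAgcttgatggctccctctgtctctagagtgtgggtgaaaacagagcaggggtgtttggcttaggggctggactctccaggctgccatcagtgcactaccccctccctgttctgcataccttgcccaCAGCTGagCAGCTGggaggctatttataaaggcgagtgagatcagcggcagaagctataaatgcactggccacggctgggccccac

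The Mbnl3 window held 1 RUNX match, TGGGGT, starting 97 bases before the start, and no E-box. The Mbnl2 window held none of the 3 motifs. Celf2 has 5 annotated start sites, and the one shown lies farthest upstream. It held 2 E-boxes, CACTTG at 35 bases before the start and its reverse complement at 23, and 1 RUNX match, TGGGGT, at 167. Over the 5 Celf2 windows, 4 held an E-box, 1 a RUNX motif and 1 an AP-1 motif, and the windows of the outermost starts overlap, so the same pair of E-boxes counts in both. The probe set does not show which start was used. The Srpk3 window held 2 copies of the E-box CAGCTG at 86 and 78 bases before the start and a RUNX match on the other strand, ACCCCA, at 217. Each RUNX match in the windows shown has G in the third place of the motif, read on its own strand. All matches are descriptions of the letters in the windows and were not tested as binding sites.

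The SR proteins gave no calls and narrow intervals. In the probe sets used for the 10 measured, 0 were called in limma and 0 had an unadjusted p under 0.05. Over all genes 6.10% were called and 3895 of 19938 had an unadjusted p under 0.05, so counts in a list of 10 say little. Differences of the class ran from -0.13 in Srsf9 to 0.060 in Srsf12. Srsf2, which also acts in the release of paused RNA polymerase, read 11.58, 11.56, 11.56 and 11.69 on WT arrays 1 to 4, and 11.62, 11.57, 11.58 and 11.61 on Runx1f/f arrays 1 to 4. Srsf2 thus spanned 0.13 over the 8 arrays, with WT 4 the highest. Its difference was -0.057 ± 0.048 (SE, limma, adjusted p = 0.632). Srsf3, the shortest of the classical SR proteins and a factor in mRNA export, read 11.42, 11.42, 11.45 and 11.54 on the WT arrays, then 11.46, 11.46, 11.39 and 11.52 on the Runx1f/f arrays. Here both arrays numbered 4 were the highest, and the sides overlapped, with a difference of -0.054 ± 0.051 (limma, adjusted p = 0.684).

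Among the other SR proteins, Srsf1, Srsf6 and Srsf5 differed by -0.022, -0.019 and -0.026, and Srsf4 by -0.040. Srsf10, which represses splicing when it loses its phosphates after heat shock, and Srsf11 differed by 0.0093 and 0.0013. Srsf9 had the widest range of the class, 0.33 over the 8 arrays, with its highest value of 8.22 in WT 4 and its lowest of 7.89 in Runx1f/f 2. The 95% intervals of the 10 SR proteins lay between -0.31 and 0.17, so for each of them a change of 1.5-fold or more between the sides was outside its interval. Srsf12 was the only SR protein whose arrays did not overlap between the sides, at 3.50 to 3.58 in numbers 2 and 3 and 3.43 to 3.49 in numbers 1 and 4. Its difference was not called (limma, adjusted p = 0.5955). These intensities are low, and without detection p-values it is not known whether the probe set was above background.

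Several SR proteins had more than 1 probe set, and these did not always move alike. The 3 probe sets annotated to Srsf3, with means of 11.46, 11.41 and 7.81, differed by -0.054, -0.037 and 0.072, and none was called. The brightest probe set of a gene can share signal with processed pseudogenes. Which probe set lies at the gene itself was not examined, so levels and differences of such genes are uncertain. A further Srsf10 probe set, with a mean of 7.51 against 10.25, differed by -0.24, where the one used differed by 0.0093 (limma over all single-symbol probe sets, adjusted p = 0.128). The value of -0.24 lies outside the range given for the class, which holds for the probe sets used. Srsf5 gave -0.026 and -0.020 in its 2 probe sets.

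The hnRNPs gave 0 calls among 17 as well, where 6.10% of all genes were called. In this class 1 gene had an unadjusted p under 0.05 in limma, against 3895 of 19938 over all genes. The median difference of the hnRNPs was 0.038, with 11 above 0 and 6 below. The range ran from -0.051 in Hnrnpa0 to 0.18 in Hnrnpr. Hnrnpr, a relative of the cytoplasmic RNA-binding protein Syncrip, was the gene with the low unadjusted p. It read 8.77, 8.97, 8.84 and 8.91 on WT arrays 1 to 4, and 8.73, 9.01, 9.01 and 8.73 on Runx1f/f arrays 1 to 4. Its sides overlapped in the WT arrays and were apart in the Runx1f/f arrays. The difference was 0.18 ± 0.069 (SE, limma, adjusted p = 0.209), with a 95% interval of 0.016 to 0.34.

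After Hnrnpr, the smallest p-values in the class belonged to 3 genes that were not called and whose differences were above 0. Hnrnph2, an X-linked member of the H/F group that binds G-rich runs, was at 9.87 ± 0.049 (SD, n = 4) in numbers 2 and 3 and 9.76 ± 0.031 in numbers 1 and 4 (limma, adjusted p = 0.290). A further Hnrnph2 probe set, with a mean of 9.37, differed by 0.062, where the one used differed by 0.11 (limma over all single-symbol probe sets, adjusted p = 0.633 for the further one). Which probe set lies at the gene itself was not examined. Hnrnpul2 was at 9.77 ± 0.029 and 9.66 ± 0.061 (adjusted p = 0.339), and Hnrnpdl, a relative of Hnrnpd, at 9.92 ± 0.050 and 9.84 ± 0.036 (adjusted p = 0.429). Hnrnpd, also called Auf1, which binds AU-rich elements and marks mRNAs for decay, was at 10.68 to 10.73 in numbers 2 and 3 and at 10.60 to 10.66 in numbers 1 and 4. These arrays did not overlap, yet the difference of 0.075 was not called (adjusted p = 0.459).

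The remaining 12 hnRNPs differed by at most 0.064 in either direction. Hnrnpk, which binds C-rich RNA, differed by -0.041 and spanned 12.41 to 12.52 over the arrays. Hnrnpu, a scaffold-attachment factor, differed by 0.012, and Hnrnpll, known from lymphocyte splicing of Ptprc, by 0.0072. Hnrnpa2b1 and Hnrnpc, core proteins of the hnRNP particle, differed by 0.064 and 0.042, Hnrnpl by 0.038, Hnrnpm by 0.050, and Hnrnpab, Hnrnph1 and Hnrnpul1 by -0.039, -0.028 and -0.0053. Hnrnpf, a G-run binder like Hnrnph2, differed by -0.026. The 4 probe sets annotated to Hnrnpf gave -0.028 to -0.016 and the 3 to Hnrnpk -0.041 to -0.0053. Probe sets of such genes can share signal with processed pseudogenes, so their levels and differences are uncertain.

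Hnrnpa1, Hnrnpa3 and Hnrnph3 were not among the members because each of their 15 probe sets carried more than 1 symbol. The 5 that name Hnrnpa1, which blocks exon inclusion at many sites, together with the pseudogene Hnrnpa1l2-ps2 and further predicted genes differed by -0.0094 to 0.0023. The 9 for Hnrnpa3 and the predicted gene Gm6793 differed by -0.016 to 0.027, and the 1 for Hnrnph3 and Aff3 by 0.074. In a fit over all probe sets none of the 15 was called (limma, smallest adjusted p = 0.739).

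In the Mbnl family 1 of 3 genes was called, against 6.10% of all genes. Muscleblind-like proteins drive the switch from fetal to adult exons in muscle, and are sequestered by expanded CUG repeats in myotonic dystrophy. All 3 differences were below 0. Mbnl3, the X-linked member that is expressed mainly in embryonic and regenerating muscle and is known to hold back differentiation when raised in myoblasts, read 5.96, 5.63, 5.52 and 6.19 on WT arrays 1 to 4, and 6.09, 5.56, 5.18 and 6.46 on Runx1f/f arrays 1 to 4. All 4 arrays numbered 2 or 3 were below all 4 arrays numbered 1 or 4. Mbnl3 was at 5.47 ± 0.20 (SD, n = 4) in numbers 2 and 3 and at 6.18 ± 0.22 in numbers 1 and 4, a difference of -0.70 ± 0.14 (SE), or 1.63-fold (limma, adjusted p = 0.0284). Within the labels the difference was -0.50 in WT arrays, -0.53 between Runx1f/f 2 and 1, and -1.28 between Runx1f/f 3 and 4.

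The call of Mbnl3 depended on single arrays. Its adjusted p rose to between 0.0578 and 0.1005 without WT 2, WT 3, WT 4 or the pair of Runx1f/f 1 and 2. In those fits the difference stayed between -0.77 and -0.70. Over all arrays left out the difference ran from -0.79 to -0.51, and in the fits with these 2 extremes Mbnl3 was called. Leaving out 1 of 8 arrays gives 6 distinct fits, since a Runx1f/f array left alone in its column set adds nothing, so leaving out either array of a pair drops the pair. Mbnl3 also has a mean of 5.82, below the minimum of 6 used in the alternative without dim genes.

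Mbnl2 read 10.0035, 9.44, 9.54 and 9.92 on WT arrays 1 to 4, and 9.74, 9.71, 9.62 and 9.83 on Runx1f/f arrays 1 to 4. The sides did not overlap, but the gap was wide in the WT arrays and narrow in the Runx1f/f arrays. The difference of -0.30 ± 0.084 (SE) was not called (limma, adjusted p = 0.0927). It was called with the replicate number as a random block (adjusted p = 0.0406), without the term for the column sets (0.0252) and without Runx1f/f 1 and 2 (0.0470), and across the arrays left out its adjusted p ran from 0.0470 to 0.252. Mbnl1, the main muscleblind of adult muscle, read 9.13, 9.18, 9.16 and 9.18 on WT arrays, then 9.20, 9.12, 9.16 and 9.16 on Runx1f/f arrays. The sides overlapped, with a difference of -0.011 ± 0.047 and a 95% interval of -0.12 to 0.099 (limma, adjusted p = 0.950).

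**Figure D2:**
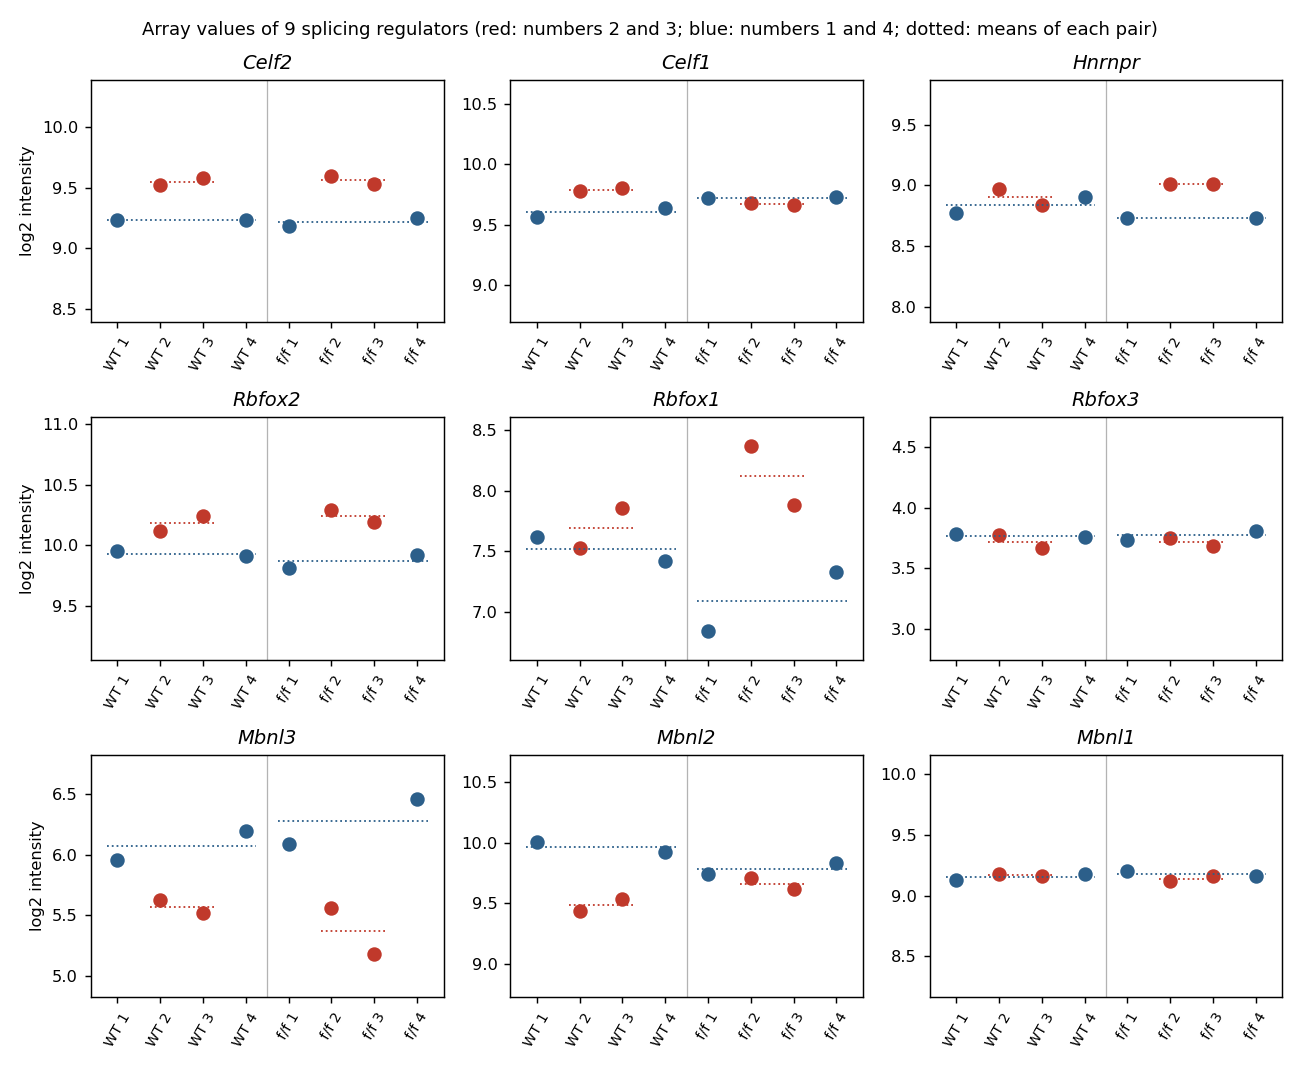
Log2 intensity of 9 regulators in each array, with 4 arrays labelled WT on the left of the grey line and 4 labelled Runx1f/f on the right; each panel spans 2 log2 units, red points are numbers 2 and 3, blue points numbers 1 and 4, and dotted lines the mean of each pair. The 2 colours are apart in Celf2, Rbfox2, Mbnl3 and Mbnl2, overlap in the other panels, and cross between the labels in Celf1.

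Celf2 showed the smallest p of the list. CUG-binding Celf proteins favour fetal exons and also act on mRNA decay and translation, and Celf1 and Celf2 are the members of the family known from muscle and heart. Celf2 read 9.23, 9.52, 9.58 and 9.23 on WT arrays 1 to 4, and 9.18, 9.60, 9.53 and 9.25 on Runx1f/f arrays 1 to 4. Every array numbered 2 or 3 was above every array numbered 1 or 4, and the spread within a side was narrow. The means were 9.56 ± 0.037 (SD, n = 4) and 9.22 ± 0.029, a difference of 0.33 ± 0.048 (SE) or 1.26-fold (limma, adjusted p = 0.00996). The difference was 0.31 in WT arrays, 0.42 between Runx1f/f 2 and 1 and 0.28 between Runx1f/f 3 and 4. With each array left out in turn Celf2 was called in all 6 distinct fits, of which 2 drop a Runx1f/f pair, with adjusted p from 0.0248 to 0.0458. In limma fits of a single label the adjusted p was 0.0582 in WT and 0.198 in Runx1f/f arrays. A further Celf2 probe set, with a mean of 4.13, differed by 0.13 and was not called (limma, adjusted p = 0.517).

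Celf1 read 9.57, 9.78, 9.81 and 9.64 on WT arrays 1 to 4, and 9.72, 9.68, 9.67 and 9.73 on Runx1f/f arrays 1 to 4. Among WT arrays, numbers 2 and 3 were the higher pair, and among Runx1f/f arrays they were the lower pair. Over both labels the difference was 0.068 ± 0.063 (SE, limma, adjusted p = 0.671). A further Celf1 probe set, with a mean of 8.64, read 8.44, 8.71, 8.68 and 8.73 on WT arrays 1 to 4, where the sides overlapped. In its Runx1f/f arrays numbers 2 and 3 were again the lower pair. It differed by -0.010 (limma over all single-symbol probe sets, adjusted p = 0.975). The 4 further members, known mainly from neurons, gave low intensities and small differences: Celf3 -0.017, Celf4 -0.085, Celf5 -0.11 and Celf6 -0.012. No detection p-values were used here, so whether these probe sets were above background is not known. Celf5 had the lowest p of the 4 (limma, adjusted p = 0.427), with arrays from 3.45 to 3.70.

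In the Rbfox family, Rbfox2, the broadly expressed member that acts in myoblast fusion and heart development, was higher in numbers 2 and 3. It read 9.95, 10.12, 10.24 and 9.91 on WT arrays 1 to 4, and 9.82, 10.30, 10.19 and 9.92 in Runx1f/f 1 to 4, and the sides did not overlap. The means were 10.21 ± 0.074 (SD, n = 4) and 9.90 ± 0.058, a difference of 0.31 ± 0.060 (SE) or 1.24-fold (limma, adjusted p = 0.0258). The direction was shared by WT arrays (0.25), by Runx1f/f 2 over 1 (0.48) and by Runx1f/f 3 over 4 (0.27). The call was lost without WT 3, without WT 4 and without either Runx1f/f pair, with adjusted p from 0.0576 to 0.0944 in those fits, and was kept without WT 1 or WT 2.

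Rbfox1, the member enriched in muscle, heart and brain, had the widest spread of the 39 genes. It read 7.62, 7.53, 7.85 and 7.42 on WT arrays 1 to 4, and 6.84, 8.37, 7.88 and 7.33 on Runx1f/f arrays 1 to 4. The lowest and the highest array were thus Runx1f/f 1 and Runx1f/f 2, and in the WT arrays the sides overlapped. By the equal means these extremes lie equally far from the gene mean of 7.60, so they are 1 deviation and not separate observations. The difference of 0.60 ± 0.22 (SE) was larger than that of Rbfox2 but was not called (limma, adjusted p = 0.179), and its 95% interval ran from 0.090 to 1.12. It amounted to 0.17 in WT arrays, 1.52 between Runx1f/f 2 and 1, and 0.55 between Runx1f/f 3 and 4. Over the arrays left out it ran from 0.30, without the pair of Runx1f/f 1 and 2, to 0.75, without WT 2. Rbfox3, the neuronal antigen NeuN, read 3.78, 3.78, 3.67 and 3.76 on WT arrays, then 3.74, 3.75, 3.68 and 3.81 on Runx1f/f arrays. Its sides overlapped too, with a difference of -0.052 ± 0.051 (limma, adjusted p = 0.699).

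The arrays of the sides did not overlap in 6 of the 39 regulators, against 20.4% of all genes. These were 4 genes higher in numbers 2 and 3 (Celf2, Rbfox2, Hnrnpd and Srsf12), where the background over all genes was 9.87%, and 2 lower (Mbnl3 and Mbnl2), where it was 10.5%. Differences of at least 1.5-fold occurred in 2 of the 39 genes, Mbnl3 and Rbfox1, against 3.15% of all genes. The median SD over the 8 arrays was 0.045 in SR proteins and hnRNPs together and 0.050 in the whole list, against 0.084 over all genes and 0.11 over the 7266 genes with a mean of at least 6. In that brighter subset 11.0% of genes were called, against 2 of the 32 regulators in it.

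The split ran the same way in both labels for 27 of the 39 regulators (69.2%), against 58.2% of all genes. Among genes with a mean of at least 6 it did so for 20 of 32 regulators (62.5%), against 66.2%. A test of the difference between the labels called 0 of the 39 (limma interaction, adjusted p under 0.05; 0.176% of all genes), and 3 had an unadjusted p under 0.05, where 9.58% of all genes had one. These 3 were Mbnl2, with a difference lower by 0.35 in WT than in Runx1f/f arrays (adjusted p = 0.366), Rbfox1, with a difference higher by 0.86 in Runx1f/f arrays (adjusted p = 0.425), and Celf1, whose direction turned (adjusted p = 0.506).

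**Figure D3:**
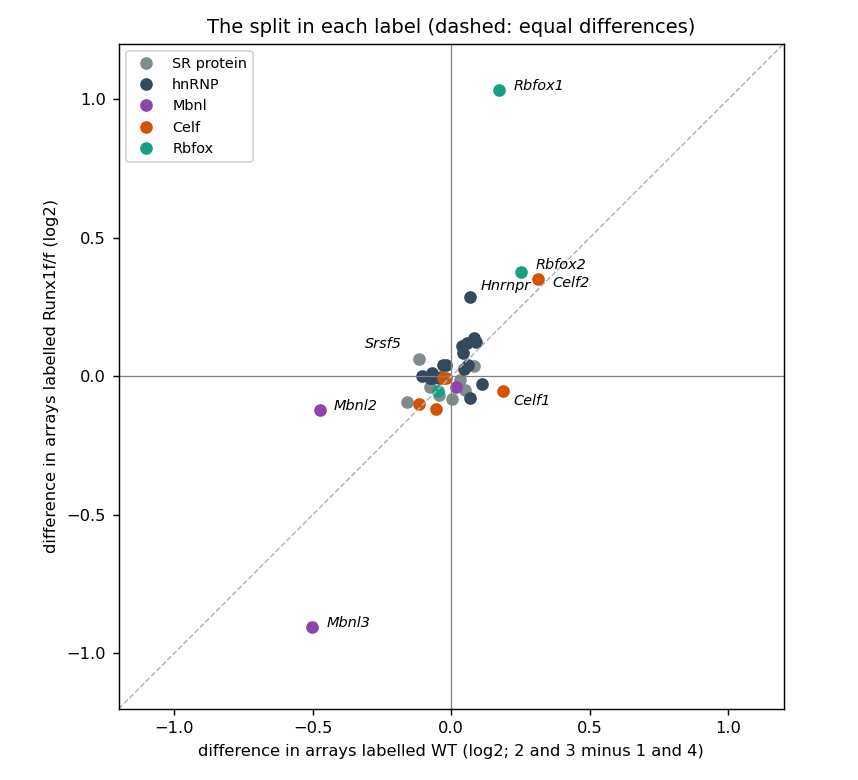
Difference between numbers 2 and 3 and numbers 1 and 4 in the arrays labelled WT (x axis) and in those labelled Runx1f/f (y axis), in log2 units, 1 point per regulator and 2 arrays a side in each label; the dashed line marks equal differences. Celf2 and Rbfox2 lie near the line, Rbfox1 far above it at 0.17 and 1.03, and most SR proteins and hnRNPs near 0 on both axes.

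Other splicing factors were counted in 3 lists. Among 23 measured SR-related factors and SR kinases of 24 listed, 1 was higher and 0 were lower (4.35%, against 6.10% of all genes), with a median difference of -0.00040. The gene called was Srpk3, the muscle-specific SR protein kinase and a known target of Mef2. It read 7.55, 8.29, 8.43 and 7.21 on WT arrays 1 to 4, and 7.20, 8.54, 8.11 and 7.64 on Runx1f/f arrays 1 to 4. Again numbers 2 and 3 were above numbers 1 and 4 without overlap, as for Celf2, by 0.94 ± 0.14 (SE) or 1.92-fold (limma, adjusted p = 0.0111). The ubiquitous kinases Srpk1 and Srpk2 differed by -0.15 and 0.072 and were not called.

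Of 43 measured RNA-binding splicing regulators outside the 5 families, 0 were higher and 2 were lower (4.65%), and the median difference was 0.0041. Khdrbs3, the STAR-family protein Slm2, was at 6.54 in numbers 2 and 3 and 7.03 in numbers 1 and 4, a difference of -0.49 ± 0.087 (SE, limma, adjusted p = 0.0203). Ptbp3, a paralogue of the polypyrimidine tract protein that represses muscle and neuronal exons, was at 9.41 and 9.76, a difference of -0.35 ± 0.075 (adjusted p = 0.0360). Both genes had arrays that did not overlap. In the core spliceosome 2 of 36 were higher and 0 lower (5.56%), and 25 of the 36 lay below 0, with a median of -0.040. The helicase-like Aqr differed by 0.43 ± 0.074 (adjusted p = 0.0186) and the ubiquitin ligase Prpf19 by 0.35 ± 0.078 (adjusted p = 0.0443).

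Genes of muscle differentiation followed the same split. All 12 differences of that list were above 0, with a median of 0.53, and 5 genes were called higher (41.7%): Mef2c by 1.29, Cav3 by 1.21, Myh8 by 1.19, Ckm by 0.99 and Myog, the factor that starts terminal differentiation, by 0.76. All 7 measured of 8 proliferation genes were below 0, with a median of -0.25, and 0 were called (limma, smallest adjusted p = 0.0554). By array, the median of the muscle list was 11.00 to 11.41 in numbers 2 and 3 and 10.65 to 11.05 in numbers 1 and 4, and that of the proliferation list 8.70 to 8.87 and 8.79 to 9.09. Both medians overlapped between the sides. Gene by gene, the sides did not overlap in 10 of the 12 muscle genes, all higher, against 9.87% of all genes. They did not overlap in 4 of the 7 proliferation genes, all lower, against 10.5% of all genes. The medians of the other marker lists overlapped too: neurons and glia at 3.49 to 3.57 and 3.57 to 3.61, fibroblasts at 3.72 to 3.97 and 3.83 to 4.02, leukocytes at 3.43 to 3.51 and 3.43 to 3.50, and endothelium at 3.50 to 3.55 and 3.48 to 3.56. In these 4 lists 0 genes were called. Col3a1 stood apart in the fibroblast list, at 8.99 and 8.82. The part that the share of differentiating cells has in the differences of Celf2, Rbfox2, Mbnl3 and Srpk3 was not tested, and in bulk RNA more cells of a type and more RNA per cell cannot be told apart.

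**Figure D4:**
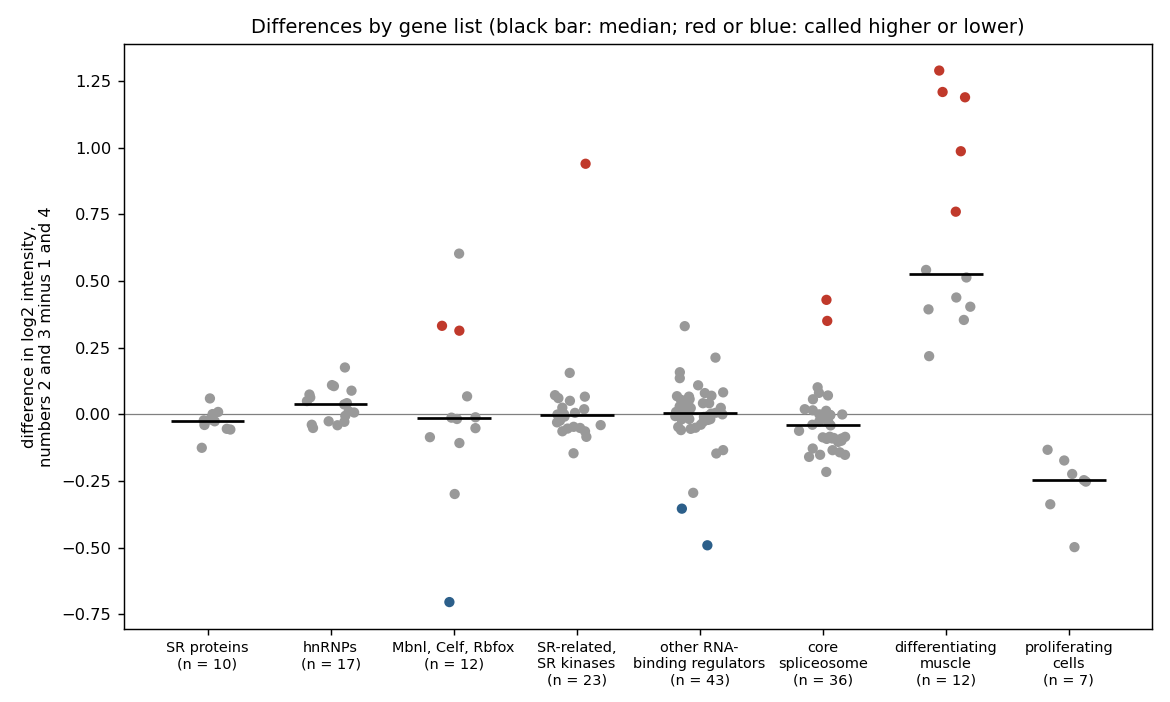
Difference between numbers 2 and 3 and numbers 1 and 4 for each gene (points, spread sideways at random) in 8 lists, in log2 units, with the median as a black bar; red and blue points were called higher and lower. The bars of the splicing lists lie between -0.040 and 0.038, that of the muscle list at 0.53 and that of the proliferation list at -0.25.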

How the data were processed

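The values deposited by the authors are log2 intensities with RMA and Partek as the tools listed, unversioned, by the submitters' processing notes. No label says how the column sets came to have equal means, and the order of the columns is in doubt. Columns were assigned to samples by the accession in the header, and array medians were 4.39 to 4.41. Of 35399 probe sets, 21789 had 1 gene symbol, which left 19938 genes, with no filter on dim probe sets.

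Differences were fitted over all genes with limma 3.58.1 in R 4.3.3 (lmFit, eBayes, two-sided, Benjamini-Hochberg over all genes, threshold 0.05), with a term for the 3 column sets. The equal means take away 2 degrees of freedom, so 4 remained. The fit was tested on simulated data with the same equal means. Deviations from the label means correlated by 0.39, 0.46, 0.60 and 0.57 between same-numbered arrays of the labels. With the split removed within each label, the arrays of a side mirror each other, so numbers 2 and 3 must give the same correlation. It was 0.18 for them and -0.090 for numbers 1 and 4, which are tied in the same way. The labels give no pairing, and p-values measure the spread between these arrays.

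The members, the lists and the split were chosen with earlier results of these data known. Values in every array were given for all Mbnl and Rbfox genes, Celf1, Celf2, Srsf2 and Srsf3 and for called members. Because fewer than 5 were called, the 10 members with the smallest p were named too, and from each list up to 4 called genes. Other names account for the remaining members or were chosen after their values were seen. Alternatives changed the terms, scaling, dim filter, probe sets, variance model, weights, threshold and arrays. The number of arrays limits the precision.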

Additional observations from a re-analysis of the deposited data

Results flagged for a closer look

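In groups of 4 arrays, 117 groups of member values were checked for an array far from the others, and 3 were marked, where chance marks about 5% of such groups. All 3 involve WT 4. Srsf2 read 11.69 in WT 4, against 11.58 and less in the other WT arrays. Hnrnpf read 11.94 there, against 11.85 and less. Hnrnpdl read 9.89 in WT 4, against 9.82 and less in the other arrays numbered 1 or 4. The groups overlap in their arrays. The 4 Runx1f/f values of a gene are symmetric by the equal means and were not checked.

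In 2 genes every array of numbers 2 and 3 lay on one side of numbers 1 and 4 in the WT arrays and on the other side in the Runx1f/f arrays. For Celf1 the difference in Runx1f/f arrays minus that in WT arrays was -0.24 (limma interaction, adjusted p = 0.506). The further Celf1 probe set did not cross in this way, since its sides overlapped in the WT arrays. For Srsf5 it was 0.18 (limma interaction, adjusted p = 0.649).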

How the results depend on the processing

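The counts of 2 regulators higher and 1 lower were kept with arrays centred, quantile normalization repeated, all single-symbol probe sets, a variance trend, robust variances and array weights. The count lower was 2 without the term for the column sets and with the replicate number as a random block (estimated correlation -0.196), in both by the addition of Mbnl2. The block changed no other call among the regulators, and as a fixed block in the comparison of labels it left the count at 0. With genes of a mean of at least 6 the count lower was 0, because Mbnl3 was not tested. With all probe sets, unnamed ones included, the counts were 1 higher and 0 lower, at an adjusted p under 0.01 they were 1 and 0, and with a difference of at least 0.5 they were 0 and 1. With WT arrays alone they were 0 and 2 (Mbnl2 and Mbnl3), and with Runx1f/f arrays alone, where 1 residual degree of freedom remained, 0 and 0. With 1 array left out the count higher ran from 1 to 2 and the count lower from 0 to 1. These fits omitting 1 array are 6 distinct ones. The cause was not tested.

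Of 327 differences of named regulators under alternatives, 4 turned direction, none of them called: Mbnl1 to 0.018 in WT arrays alone and to 0.014 without Runx1f/f 1 or without Runx1f/f 2 (from -0.027 to 0.014 over the arrays left out), and Celf1 to -0.051 in Runx1f/f arrays alone. The cause was not tested. Without the term for the column sets, 2945 genes were called over all, against 1217, and with the random block 1917. With all probe sets 639 were called, at an adjusted p under 0.01 it was 358, with a difference of at least 0.5 it was 620, with WT arrays alone 1462, with Runx1f/f arrays alone 181, and with 1 array left out 456 to 1032. Higher against lower calls were 1456 to 1489 without the set term and 736 to 481 with it. The count for the difference between labels was 0 under its 4 alternatives. Signal over background was not analysed here.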
